A study of Mus musculus with 4 samples.

Results

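Endothelial cells line the blood vessels, and 10 genes that mark them were followed in cultures of primary mouse myoblasts, which are precursors of muscle fibres. The genes were Pecam1, Cdh5, Kdr, Flt1, Tie1, Tek, Emcn, Eng, Esam and Erg. They were taken by name as markers of the cell type, with no threshold on their values, to ask whether endothelial cells remained in the cultures. Each of the 10 had a row among the 55573 genes of the table. The measured quantity was ribosome-associated RNA signal, given as RPKM (reads per kilobase of gene scaled to library size). The record is divided on the assay. The titles name Polysome-Seq, the sequencing of RNA from the gradient fractions that hold several ribosomes per mRNA, whereas the extraction text describes ribosome profiling, in which the fragments that ribosomes shield from RNase I are sequenced. The study ran both, and gene totals do not show which of them these are, so the values are called ribosome-associated signal.

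There were 2 wild-type (WT) libraries and 2 libraries whose genotype is given as eIF5A knockout (KO). The cells came from the hind-limb muscles of 3-week-old mice, were freed with dispase and collagenase and were strained, and no sorting step is given for them. Both groups were grown in DMEM with 10% fetal bovine serum and FGF at 10 μg/ml, collected on day 2 of proliferation, and treated with cycloheximide at 100 μg/ml, for 10 min by the sample labels, the time given for polysome profiling, and 1 min by the design text, the time given for ribosome profiling. The study describes its knockout mice as Pax7-CreERT2/+ with eIF5A f/f, induced with tamoxifen, and its WT mice as littermates. Elsewhere its WT mice carry Pax7-CreERT2/+ alone, or are given as Pax7+/+ with eIF5A f/f. Pax7 is a gene of muscle stem cells, and it drives Cre there rather than in vessel endothelium. Nothing in the labels says whether the 2 libraries of a group came from separate animals, and p-values therefore measure the spread between libraries, which may be technical.

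The targeted gene was read first. Eif5a signal was 34.9 and 65.2 RPKM in WT and 60.3 and 59.4 RPKM under the KO label. The KO values lay inside the WT range, and the group is therefore called by its label throughout. Of 12 markers of the labelled cell type, 9 had reads in all 4 libraries. Myod1, the transcription factor that sets muscle identity, had 139.9 and 117.5 RPKM in WT and 48.6 and 79.8 RPKM under the KO label. Pax7, at 0.94 and 1.48 RPKM, and Myf5, at 1.06 and 0 RPKM, were read weakly under the KO label. Between 217651 and 460099 reads fell on protein-coding genes in a library.

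Endothelial cells hold to each other through VE-cadherin, the product of Cdh5, at their junctions, where PECAM1 and ESAM also sit. They read growth signals through receptor tyrosine kinases. VEGF receptors 1 and 2 are encoded by Flt1 and Kdr, and the angiopoietin receptor Tie2 and its relative Tie1 by Tek and Tie1. Endoglin, from Eng, is a co-receptor for ligands of the TGF-beta and BMP family, endomucin, from Emcn, is a sialomucin of the cell surface, and ERG is an ETS-family transcription factor that holds the endothelial programme. Cdh5 and Tie1 are largely restricted to endothelium, whereas Eng is also made by fibroblasts and other mesenchymal cells.

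The coding sequences of the members were examined for what bears on a ribosome measurement of eIF5A. This factor helps ribosomes over consecutive prolines. In the longest annotated coding sequence, 4 of the 10 members hold a run of 3 proline codons, and the other 6 a run of at most 2. A run of 3 or more is held by 25.7% of 9869 tested protein-coding genes. The 4 runs are shown in the coding direction with 15 bases to either side, the proline codons in capitals (GENCODE M21, GRCm38).
Flt1, codons 1318 to 1320 of 1333, chr5:147564247-147564285, minus strand: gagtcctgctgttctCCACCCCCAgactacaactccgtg
Tek, codons 542 to 544 of 1123, chr4:94830009-94837145, plus strand, across an intron: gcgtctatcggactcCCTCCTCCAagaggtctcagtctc
Esam, codons 357 to 359 of 394, chr9:37537651-37537689, plus strand: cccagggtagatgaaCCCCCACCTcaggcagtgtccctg
Erg, codons 121 to 123 of 486, chr16:95389919-95389957, minus strand: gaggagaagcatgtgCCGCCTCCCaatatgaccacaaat

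The receptor pairs are relatives, so it was asked whether short fragments could be assigned to the right gene. The longest identical run between the coding sequences of Kdr and Flt1 was 20 bases and that between Tek and Tie1 was 18 bases, shown in capitals with their surroundings.
Kdr, chr5:75952283-75952332, minus strand: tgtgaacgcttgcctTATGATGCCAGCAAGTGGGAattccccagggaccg
Flt1, chr5:147599550-147599599, minus strand: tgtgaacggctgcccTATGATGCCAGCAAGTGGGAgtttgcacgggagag
Tek, chr4:94859070-94859609, plus strand, across an intron: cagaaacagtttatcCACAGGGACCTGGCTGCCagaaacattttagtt
Tie1, chr4:118474375-118475432, minus strand, across an intron: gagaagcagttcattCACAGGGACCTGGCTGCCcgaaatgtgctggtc
Both runs are shorter than 26 bases, the short end of a ribosome-protected fragment, the shorter kind of read among the assays named. Counted in words of 26 bases, 8 of the 10 coding sequences shared 0 words with the annotated transcripts of any other gene. Tie1 shared 3 of 3377 words with Fgfr4, and Erg shared 3 of 1433 with Fev. The exons of Eng overlap those of Fpgs on the opposite strand, and whether counting used strand is not given in the sources used here, so reads of these genes cannot be told apart there.

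All 10 endothelial genes were read in all 4 libraries. The lowest value was 11 reads, for Emcn in WT library 1, above the floor of 3 reads that a count of 0 would allow. Together the genes held 559 and 456 reads in the WT libraries and 1116 and 837 reads in the libraries labelled KO. As a share of protein-coding reads this was 0.208% (95% Wilson interval 0.191% to 0.226%) and 0.210% (0.191% to 0.230%) in WT, and 0.243% (0.229% to 0.257%) and 0.217% (0.203% to 0.233%) under the KO label. The share of KO library 1 was the highest, its interval lying above that of WT library 1 and just reaching that of WT library 2, and the other 3 libraries lay close together. As a share of all recovered reads the genes held 0.0862% and 0.0710% in WT and 0.159% and 0.129% under the KO label. The denominators differ because protein-coding genes took 41.5% and 33.9% of recovered reads in WT and 65.4% and 59.2% under the KO label, so the size of the difference between groups depends on the denominator. Intervals and floor cover counting error only, since PCR copies are not independent molecules. In bulk cultures fewer cells of a type and less RNA per cell cannot be told apart, so the shares do not give a number of endothelial cells.

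The 10 genes spanned a wide range of levels. By mean RPKM over the 4 libraries the order was Cdh5 (72.5), Esam (48.7), Eng (34.9), Pecam1 (21.8), Erg (16.4), Tie1 (10.4), Tek (7.72), Flt1 (6.46), Kdr (6.37) and Emcn (5.56). Each of the first 5 was above the next in the order in every library, while the values of neighbours from Tie1 down overlapped. By this mean all 10 lay above 4.77 RPKM, the median of the 9877 tested protein-coding genes. In both WT libraries Kdr and Emcn lay below that value, with WT means of 3.89 and 4.04 RPKM. Among 21900 protein-coding genes Cdh5 ranked 234, Esam 402 and Eng 594, and Emcn, the lowest, 4370. The order depends on the length used, because coding sequence makes up 14.5% of the gene length of Emcn and 71.5% of that of Tek. With reads set against coding length in place of gene length, Cdh5 and Esam overlapped, Emcn moved from the last place to the sixth and Tek from the seventh to the last.

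**Figure D1:**
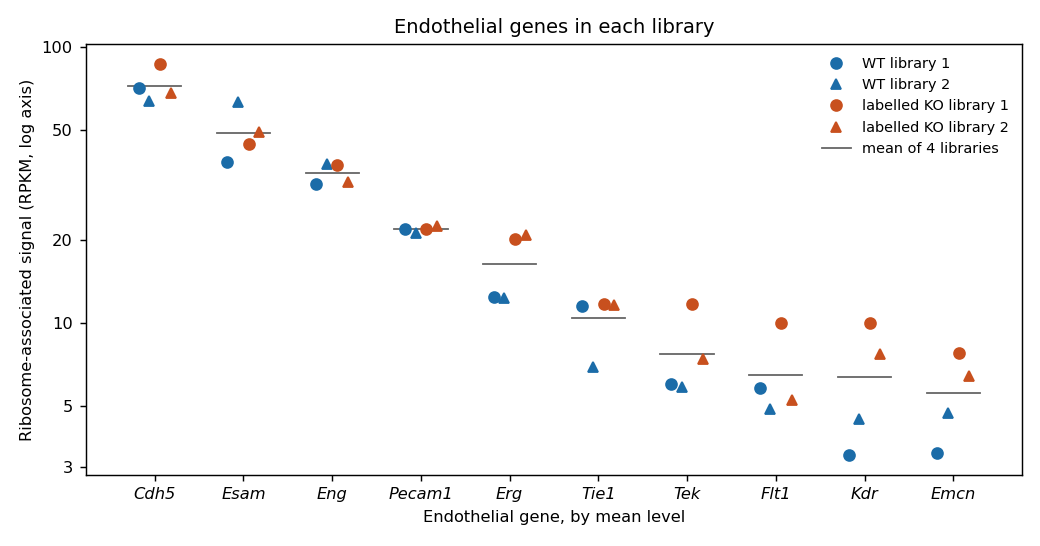
Ribosome-associated signal of the 10 endothelial genes (RPKM, log axis), with a point for each library (blue WT, orange labelled KO; circle library 1, triangle library 2) and a line at the mean of 4 libraries. The genes run from Cdh5 at a mean of 72.5 RPKM to Emcn at 5.56 RPKM. The orange points lie above both blue points for 6 genes, by very little for Pecam1 and Tie1.

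The groups were then compared across the whole table with limma on log2(RPKM + 1), on the 11363 genes whose mean reached 1 RPKM. All 10 members entered this test, and the lowest group mean among them was 3.89 RPKM (Kdr in WT), so none entered through a single group. None of the 10 was called at an adjusted p under 0.05 by limma, where 0.106% of all tested genes were called. By limma-voom on recovered reads 0 members were called, beside 39 of 9179 tested genes. At an unadjusted p under 0.05 there was 1 member, Kdr, in either test, higher under the KO label, and it did not reach this in 10 of 13 alternative fits, among them each fit without 1 library. Here limma placed 2.86% of all tested genes higher and 4.46% lower, and limma-voom placed 319 of 9179 higher and 611 lower. For 6 of 10 members the groups had no overlap, each with KO higher, against 20.1% of all tested genes in that direction and 20.3% in the other. Among protein-coding genes alone these shares were 22.4% and 19.3%. The log2 fold changes ran from -0.06 (Esam) to 1.01 (Kdr), with 9 of 10 above 0, although Pecam1 and Eng fell below 0 with libraries scaled to equal sums of protein-coding reads. Their median was 0.37, beside 0.00 for all tested genes, and 0.17 without KO library 1. With libraries scaled to equal totals of recovered reads the median was 0.90 for the members and 0.49 for all tested genes. At 2 libraries against 2, the smallest two-sided p of an exact permutation test is 0.33.

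**Figure D2:**
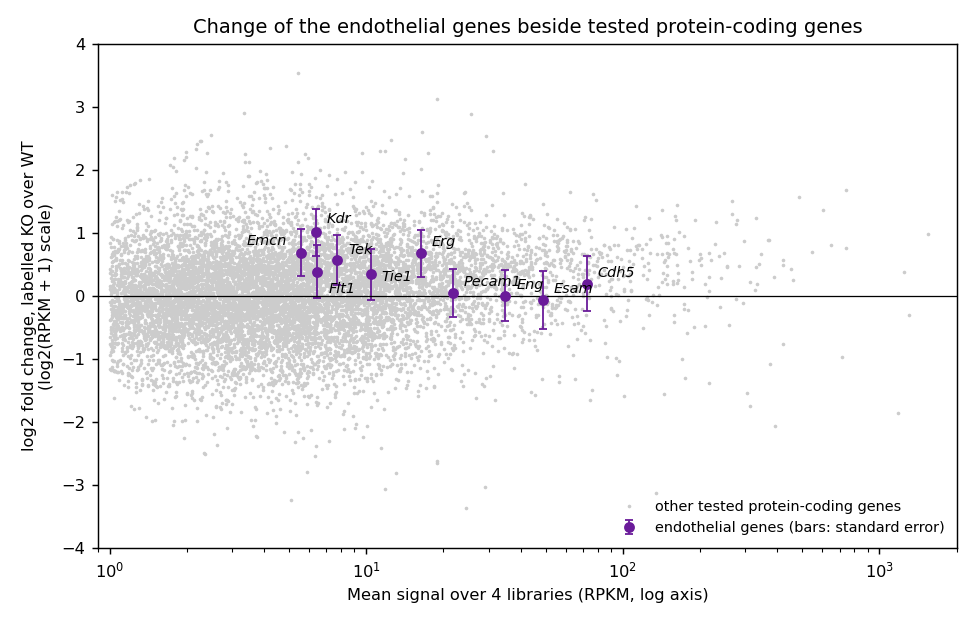
Log2 fold change of the libraries labelled KO over WT against mean signal (RPKM, log axis) for tested protein-coding genes (grey) and the 10 endothelial genes (purple, bars of 1 standard error). Cdh5, Esam, Eng, Pecam1, Tie1 and Flt1 lie within 1 standard error of 0, and Kdr is the highest of the 10 at 1.01.

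The junction genes were the among the most strongly read and their values differed little between groups. Cdh5 (ENSMUSG00000031871; chromosome 8, 104101625 to 104144511, plus strand, 12 exons) had 71.0 and 63.6 RPKM in WT and 87.1 and 68.0 RPKM under the KO label, with counts of 180, 126, 332 and 231 reads. Its groups overlapped, and the log2 fold change was 0.19 (SE 0.44, limma adjusted p 0.898), and 0.0171 without KO library 1 and 0.37 without KO library 2. Pecam1 (ENSMUSG00000020717; chromosome 11, 106654217 to 106750628, minus strand, 16 exons) had 21.8 and 21.1 RPKM in WT and 22.0 and 22.5 RPKM under the KO label. It was the steadiest of the 10, with a log2 fold change of 0.05 and a 95% interval of -0.89 to 0.98. Both KO values exceeded both WT values, but all 4 lay between 21.1 and 22.5 RPKM. Esam (ENSMUSG00000001946; chromosome 9, 37528078 to 37538319, plus strand, 7 exons) had 38.2 and 62.9 RPKM in WT, which enclosed the 44.6 and 49.2 RPKM of the libraries labelled KO. Its log2 fold change was -0.06 (95% interval -1.19 to 1.06), and 0.29 without WT library 2.

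The VEGF receptors were read at lower levels, and Kdr showed the largest change of the 10. Kdr (ENSMUSG00000062960; chromosome 5, 75932827 to 75978458, minus strand, 30 exons) had 3.31 and 4.47 RPKM in WT and 10.0 and 7.68 RPKM under the KO label, with counts of 18, 19, 82 and 56 reads. The group means were 3.89 ± 0.82 and 8.85 ± 1.65 RPKM (SD, n = 2). The libraries of each group lay together and the groups were apart. The log2 fold change of 1.01 (SE 0.38, 95% interval 0.08 to 1.94) failed the adjustment over all genes (adjusted p 0.672 by limma). Flt1 (ENSMUSG00000029648; chromosome 5, 147561604 to 147726011, minus strand, 30 exons) had 5.77 and 4.87 RPKM in WT and 9.96 and 5.23 RPKM under the KO label. The second of the KO values lay among those of WT, and the log2 fold change of 0.39 (SE 0.43, limma adjusted p 0.773) was -0.019 without KO library 1. The ratio of Kdr to Flt1 signal ran from 0.573 to 0.917 in WT and from 1.01 to 1.47 under the KO label.

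Ligands and co-receptors of the VEGF and angiopoietin systems were read as well. Of 10 such genes 8 were tested and 0 passed the adjusted threshold by limma, with 1 lower at an unadjusted p under 0.05, where 4.46% of all tested genes were lower. Vegfa, the main ligand of both VEGF receptors, had 29.0 and 33.7 RPKM in WT and 63.3 and 28.0 RPKM under the KO label, so that KO library 1 alone was high. Pgf, a ligand of VEGF receptor 1, had 49.7 and 23.4 RPKM in WT and 34.2 and 22.6 RPKM under the KO label, with overlapping groups. Vegfb, another ligand of that receptor, was the gene at an unadjusted p under 0.05, with 10.3 and 10.6 RPKM in WT against 2.06 and 3.09 RPKM. Its log2 fold change was -1.70 (SE 0.37, limma adjusted p 0.538), on counts of 10, 8, 3 and 4 reads. Vegfc and Vegfd, ligands of the lymphatic VEGF receptor, had at most 8 reads in a library. The co-receptors Nrp1 and Nrp2 had 7.97 to 13.3 and 10.0 to 17.97 RPKM over the 4 libraries, with overlapping groups for Nrp2, and with values for Nrp1 of 7.97 and 11.7 RPKM in WT against 11.8 and 13.3 RPKM.

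The Tie receptors had neighbouring levels. Tek (ENSMUSG00000006386; chromosome 4, 94739289 to 94874976, plus strand, 23 exons) had 5.98 and 5.86 RPKM in WT and 11.7 and 7.36 RPKM under the KO label. Its log2 fold change was 0.57 (SE 0.40, limma adjusted p 0.697), and 0.27 without KO library 1 and 0.88 without KO library 2. Tie1 (ENSMUSG00000033191; chromosome 4, 118471191 to 118490061, minus strand, 23 exons) had 11.5 and 6.91 RPKM in WT and 11.7 and 11.6 RPKM under the KO label. The first WT value was close to those of KO, the second was lower, and the log2 fold change of 0.35 was 0.02 without WT library 2. Among their ligands Angpt2, which endothelial cells themselves release, was well read, with 43.2 and 42.0 RPKM in WT and 68.1 and 56.4 RPKM under the KO label. Both KO values of Angpt2 exceeded both WT values, and its log2 fold change was 0.53 (SE 0.42, limma adjusted p 0.717). Angpt1, the agonist that vessel-supporting cells make, had 2 reads in library 1 of each group and 0 in library 2 of each. Angpt4 had 2 reads in KO library 2 and 0 elsewhere.

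Eng, Emcn and Erg differed from each other in how far the groups stood apart. Eng (ENSMUSG00000026814; chromosome 2, 32646595 to 32682669, plus strand, 15 exons) had 32.0 and 37.8 RPKM in WT and 37.3 and 32.4 RPKM under the KO label, with a log2 fold change of 0.0018 (95% interval -0.99 to 1.00). Emcn (ENSMUSG00000054690; chromosome 3, 137341067 to 137432185, plus strand, 12 exons) had 3.37 and 4.71 RPKM in WT and 7.75 and 6.41 RPKM under the KO label, with counts of 11, 12, 38 and 28 reads. Its log2 fold change was 0.69 (SE 0.37, limma adjusted p 0.690). Erg (ENSMUSG00000040732; chromosome 16, 95359169 to 95586593, minus strand, 11 exons) had 12.4 and 12.2 RPKM in WT and 20.04 and 20.7 RPKM under the KO label. The values of Erg, from counts of 26, 20, 63 and 58 reads, were close within each group and well apart between them. The log2 fold change was 0.68 (SE 0.37, limma adjusted p 0.691). It stayed between 0.66 and 0.70 whichever library was left out, and between 0.57 and 1.25 under the other alternatives.

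Endoglin acts with TGF-beta and BMP ligands and receptors, of which 10 were listed. Of these, 7 were tested, and 0 passed the adjusted threshold or an unadjusted p under 0.05 by limma. The ligand Tgfb1 had 61.8 and 28.2 RPKM in WT and 17.7 and 30.2 RPKM under the KO label. The receptors Tgfbr3 (42.1 and 14.9 RPKM in WT, 27.8 and 20.4 RPKM under the KO label) and Tgfbr2 (20.7 and 11.9 against 11.7 and 15.9 RPKM) were highest in WT library 1. Gdf2 and Bmp10, the circulating ligands with the highest affinity for endoglin, had 0 reads in all 4 libraries, which at a floor of 3 reads says only that they were not detectable at this depth.

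A further 25 endothelial genes were listed to see whether the 10 stood alone. Of these 23 had reads in all 4 libraries and 0 had none in any, and the median log2 fold change over the 25 was 0.0057, beside 0.37 for the 10 genes. By limma 0 of 23 tested genes passed the adjusted threshold, while at an unadjusted p under 0.05 there were 2 lower and 1 higher under the KO label, beside 4.46% and 2.86% of all tested genes. After correction for coding GC, medians over tested genes were 0.24 for this list and 0.28 for the 10 genes, and leaving out each library gave -0.13 to 0.20 for this list. The summed signal of the 25 genes was 339.6 and 521.4 RPKM in WT and 450.1 and 539.3 RPKM under the KO label, with overlapping groups. Its group means were 430.5 and 494.7 RPKM, a ratio of 1.15. Cldn5, a tight junction protein of endothelium, was the most strongly read of the list. It had 73.8 and 166.4 RPKM in WT and 147.9 and 237.8 RPKM under the KO label, with overlapping groups. The group means of Cldn5, 120.1 and 192.9 RPKM, differed by more than those of the summed signal. The sphingosine-1-phosphate receptor gene S1pr1 had 38.7 and 51.6 RPKM in WT and 40.2 and 43.9 RPKM under the KO label. The secreted factor gene Egfl7 had 37.1 and 60.5 against 22.5 and 44.6 RPKM. Sox18, an endothelial transcription factor gene, had 19.5 and 49.8 against 28.6 and 34.4 RPKM. Cd93, for a surface glycoprotein, and Dll4, for a Notch ligand of sprouting vessels, had 16.6 to 32.2 and 16.0 to 32.3 RPKM over the 4 libraries. In each of these the groups overlapped.

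The 3 genes at an unadjusted p under 0.05 were not of one direction, and neither direction held in every fit. No gene of the list was lower at that threshold with the GC trend removed, with trend=FALSE or with equal totals of recovered reads. By limma-voom no gene of the list was higher at it. Gpihbp1, which anchors lipoprotein lipase on capillary endothelium, had 5.85 and 4.99 RPKM in WT and 10.4 and 17.0 RPKM under the KO label, a log2 fold change of 1.16. Robo4, an endothelial guidance receptor, had 9.07 and 12.8 against 5.61 and 3.74 RPKM, a log2 fold change of -1.08. Ramp2, a partner of the adrenomedullin receptor, had 5.53 and 9.002 against 2.004 and 3.75 RPKM, a log2 fold change of -1.10. The adjusted p was 0.672 by limma for each of the 3.

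**Figure D3:**
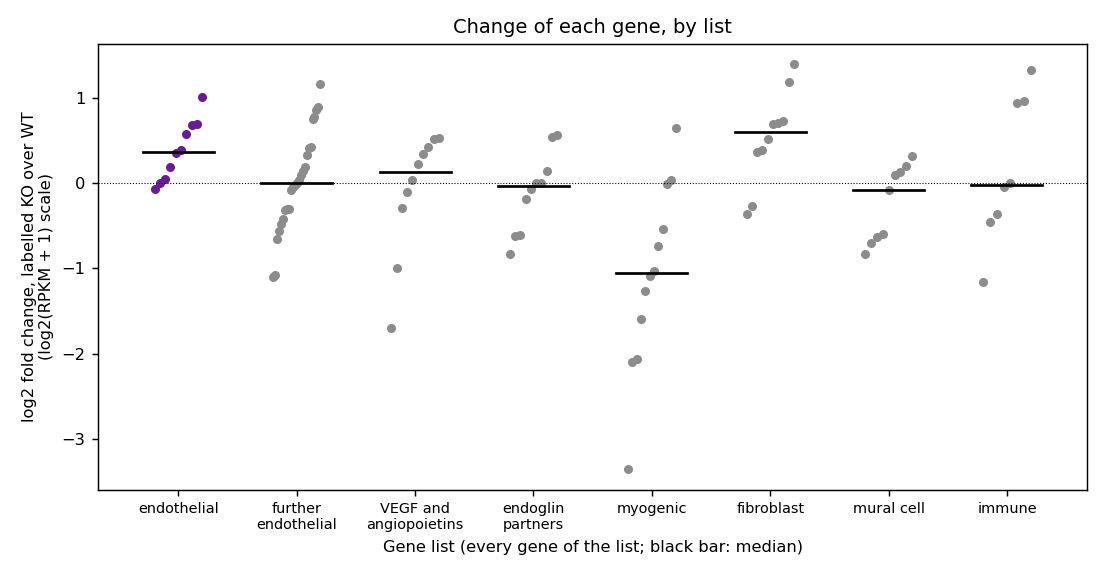
Log2 fold change of every gene, by list, for the libraries labelled KO over WT, with a bar at the median of each list; genes without reads are drawn at 0. The 10 endothelial genes (purple) have a median of 0.37 and the further endothelial genes a median of 0.0057 (0.28 and 0.24 with the coding GC trend removed), spread from -1.10 to 1.16, while the myogenic genes have a median of -1.06.

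The endothelial signal was set beside that of other cell types. Summed over the 10 genes it was 205.4 and 224.5 RPKM in WT and 262.1 and 231.1 RPKM under the KO label, a ratio of group means of 1.15. Both KO sums exceeded both WT sums, yet the KO libraries differed from each other by more than KO library 2 did from WT library 2. The 12 myogenic genes summed to 437.2 and 301.7 RPKM in WT and 193.1 and 224.5 RPKM under the KO label. The endothelial sum was therefore 0.470 and 0.744 of the myogenic sum in WT, and 1.36 and 1.03 times it under the KO label. Against the sum of the 10 fibroblast genes given below it was 0.40 and 0.66 in WT and 0.29 and 0.56 under the KO label. Against that of the further endothelial genes it was 0.60 and 0.43 in WT and 0.58 and 0.43 under the KO label. For both of these references the groups overlapped. Among single genes, the signal of Cdh5 was 0.508 and 0.542 of that of Myod1 in WT and 1.79 and 0.852 of it under the KO label. Against Des, the gene for the muscle intermediate filament desmin, Cdh5 was 1.55 and 1.59 times as high in WT and 6.31 and 3.17 times under the KO label. Lists differ in length and in how strongly their genes are made, so such ratios compare a list between libraries and do not give shares of cells.

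The ratio of group means, 1.15 for the endothelial sum, was 0.565 for the myogenic sum on the RPKM scale. As a share of protein-coding reads the myogenic list held 0.273% and 0.186% in WT and 0.131% and 0.130% under the KO label. On that scale the groups did not overlap. As a share of all recovered reads it held 0.113% and 0.0629% in WT and 0.0858% and 0.0771% under the KO label, with overlapping groups. Of the 12 myogenic genes 10 were tested, and 0 passed the adjusted threshold by limma. At an unadjusted p under 0.05, 5 were lower under the KO label, where 4.46% of all tested genes were lower. These were Chrna1, Myf5, Pax7, Des and Myog, and 82 of the 88 Myog reads came from WT library 1. Myf5 entered the test only through WT, with a mean of 0.53 RPKM under the KO label, so its count among the 5 carries no weight. Pax7, the driver of the Cre, had 8.49 and 3.62 RPKM in WT and 0.94 and 1.48 RPKM under the KO label. Sdc4 had 87.3 and 98.3 RPKM in WT and 89.2 and 101.1 RPKM under the KO label, with overlapping groups. Among the other tested myogenic genes the groups overlapped for Itga7, Cdh15 and Megf10, named here after their values were seen. They did not for Myod1, which was lower under the KO label.

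Markers of other vessel and muscle cells were also read. The 10 fibroblast genes summed to 519.6 and 338.2 RPKM in WT and 914.8 and 413.1 RPKM under the KO label, the highest sum being that of KO library 1, in which 7 of the 10 endothelial genes also exceeded KO library 2. Dcn, a matrix proteoglycan gene, had 239.5, 125.8, 459.9 and 171.1 RPKM in that order of libraries, and Pdgfra, the marker of fibro-adipogenic progenitors, had 43.4, 31.5, 88.2 and 43.6 RPKM. Fn1, the gene for the matrix protein fibronectin, had 29.1, 45.4, 82.1 and 43.4 RPKM. The part of fibroblast signal in the endothelial values was not tested. The 9 mural genes, for pericytes and smooth muscle, summed to 188.6 and 140.8 RPKM in WT and 120.7 and 127.0 RPKM under the KO label, led by Acta2, Pdgfrb and Rgs5. Of protein-coding reads the mural list held 0.159% and 0.116% in WT and 0.0991% and 0.0987% under the KO label, without overlap. As a share of all recovered reads it held 0.0659% and 0.0394% in WT and 0.0648% and 0.0584% under the KO label. On that scale the groups overlapped. None of the fibroblast or mural genes passed the adjusted threshold by limma, and 1 of them was higher at an unadjusted p under 0.05, beside 2.86% of all tested genes. This was Postn, the gene for the matrix protein periostin, with 2.29 and 3.90 RPKM in WT and 11.8 and 7.68 RPKM under the KO label.

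**Figure D4:**
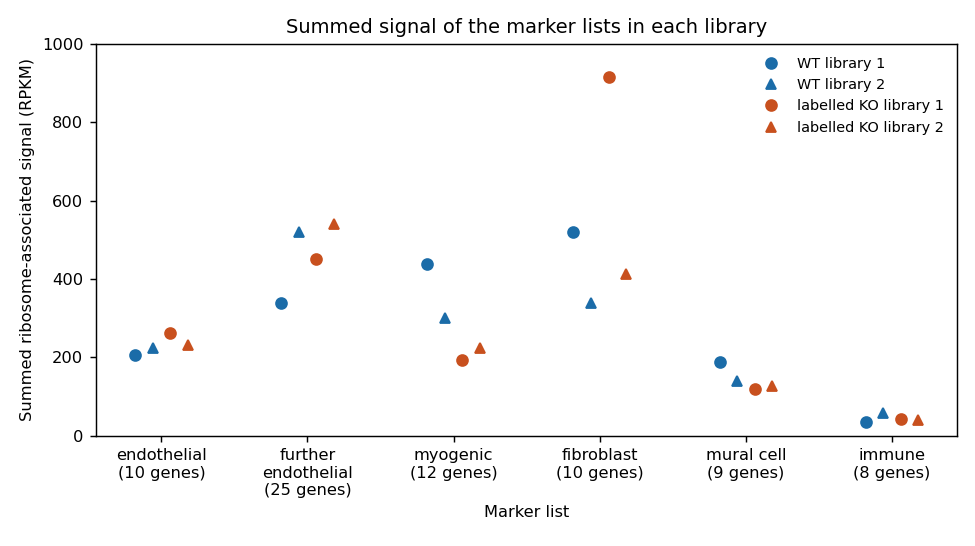
Summed ribosome-associated signal (RPKM) of 6 marker lists, with a point for each library (blue WT, orange labelled KO; circle library 1, triangle library 2). The 10 endothelial genes stay between 205.4 and 262.1 RPKM, and the fibroblast sum is highest in KO library 1. The myogenic sum is lower in both libraries labelled KO on this scale and as a share of protein-coding reads. As a share of all recovered reads its groups overlap.

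Base composition differed among the members and had no single order with their log2 fold changes. Coding GC was 44.8% for Emcn, 48.8% for Tek and 49.4% for Kdr, which had log2 fold changes of 0.69, 0.57 and 1.01, and 57.4% for Eng and 55.6% for Esam, which had 0.0018 and -0.06. Tie1 had the highest coding GC, 58.3%, and a log2 fold change of 0.35, while Erg had 54.9% and 0.68. Pecam1 had 50.4% and 0.05, Flt1 50.9% and 0.39, and Cdh5 53.3% and 0.19. The median of tested protein-coding genes was 53.2% GC. With the trend on coding GC removed from each library, the log2 fold change was 0.79 for Kdr, 0.38 for Emcn, 0.34 for Tek, 0.69 for Erg, 0.56 for Tie1 and 0.21 for Flt1. It was 0.17 for Eng, 0.12 for Cdh5, -0.0055 for Esam and -0.15 for Pecam1, and Kdr was then no longer at an unadjusted p under 0.05. Members with 3 consecutive prolines (Flt1, Tek, Esam and Erg) had log2 fold changes from -0.06 to 0.68, and the other 6 from 0.0018 to 1.01, so that the ranges overlapped.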

How the data were processed

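Ribosome-associated RNA from 4 libraries was analysed, named Polysome-Seq in the titles and described as ribosome profiling in the extraction text, 2 WT and 2 labelled KO, grouped by sample title. The deposited table held RPKM values that the authors computed from TopHat2 alignments (build mm10 per the labels) and HTSeq counts; removal of rRNA and tRNA reads is given for the ribosome profiling alone, and versions and strand settings are not given in the sources used here. Value times gene length was a whole multiple of 1 step (tolerance 0.001) for 100% of values above 0, which gave 642429 to 704006 recovered reads per library. The authors divided by library sizes of 602863 and 471136 in WT and 906990 and 807705 under the KO label. These sizes lay below the recovered reads in both WT libraries and above them in both libraries labelled KO.

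Of the identifiers, 99.7% were found in GENCODE M21 (GRCm38), 99.7% of these with equal coordinates, and transcript sequences came from it. Tests used limma 3.58.1 in R 4.3.3 (lmFit and eBayes, trend=TRUE), with log2(RPKM + 1) as input and a required mean of 1 RPKM, and Benjamini-Hochberg adjustment over all tested genes. Fold changes on this scale understate the change of low genes. Intervals are 95% and unadjusted. The fit was tested on simulated data. The members and gene lists were chosen with earlier results of these data known. All 10 members are named, with every VEGF and angiopoietin gene, the 6 most strongly read further endothelial genes, the 3 most strongly read of each other list, Myod1, Pax7, Des, Pdgfra, Ptprc, Prox1 and Lyve1, and any listed gene at an unadjusted p under 0.05. Alternatives were a pseudocount of 0.1, no filter, a minimum mean of 5 RPKM, 2 scalings, trend=FALSE, a replicate block, limma-voom on genes with at least 20 reads, removal of the coding GC trend, coding length, and leaving out each library.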

Additional observations from a re-analysis of the deposited data

How the results depend on the processing

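None of the 10 endothelial genes and none of the tested further ones (23 of 25, or 17 at a minimum mean of 5 RPKM and 25 with no filter) was called at an adjusted p under 0.05 by limma or limma-voom under any of the 13 alternatives, the smallest adjusted p of a member being 0.287. With libraries scaled to the same sum of reads, 4 members (Kdr, Erg, Emcn and Tek) were at an unadjusted p under 0.05, as were 1683 of 11327 tested genes in the same direction, and the median of all tested genes moved to 0.49. The median of the members was then 0.90 and the log2 ratio of their summed RPKM 0.81 in place of 0.20; the latter was 0.0822 when protein-coding sums were equalized. Leaving out each library gave medians from 0.17 to 0.51 and log2 ratios of the sums from 0.10 to 0.29. Kdr was at an unadjusted p under 0.05 in 3 of the 13 alternatives. The ratio of the endothelial to the myogenic sum, pooled over the 4 libraries, which lie at 0.470 and 0.744 in WT and 1.36 and 1.03 under the KO label, was 0.798 by gene length and 0.617 by coding length.

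Of 130 member values under alternatives, 120 kept their direction and 10 did not. Esam was 0.54 with the same sum of reads, Pecam1 was -0.0641 and Eng -0.11 when protein-coding sums were equalized, Eng was -0.0031 by limma-voom and Pecam1 -0.15 with the GC trend removed. Leaving out each library gave -0.115 to 0.12 for Eng, -0.42 to 0.29 for Esam and -0.019 to 0.80 for Flt1.

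The 12 genes called in the whole table (11 lower, 1 higher) became 13 when protein-coding sums were equalized, 39 by limma-voom and 0 under the other 11 alternatives, each fit that left out a library included; there, an unadjusted p under 0.05 was reached by 169 to 791 lower and by 178 to 1683 higher genes. The cause was not tested. The replicate block was among those giving 0 (509 lower and 318 higher genes without adjustment); same-numbered libraries share only a number, and their deviations had a correlation of 0.057. In a fit without a library, the lone library was assumed to vary like the other group. At 89 to 869 reads per member, intervals of about 1 log2 unit to either side limit what can be seen.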

Other observations

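Lymphatic endothelium was listed apart from the 10 genes. Pdpn, podoplanin, which lymphatic endothelial cells and fibroblasts both make, had 73.9 RPKM in WT library 1, 321.2 RPKM in WT library 2, and 384.1 and 331.8 RPKM under the KO label, so that WT library 1 stood alone. Flt4, the lymphatic VEGF receptor, had 4.23 and 1.55 RPKM in WT and 3.08 and 3.46 RPKM under the KO label. The markers that define the lymphatic lineage were read weakly. Prox1 had 16, 0, 5 and 7 reads in the order WT 1, WT 2, KO 1 and KO 2, and Lyve1 had 7, 0, 10 and 11 reads, both being at 0 in WT library 2. None of the 4 passed the adjusted threshold by limma, and 0 did so at an unadjusted p under 0.05.

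Leukocyte genes were read on few counts. The 8 immune genes summed to 35.9 and 58.2 RPKM in WT and 42.2 and 39.6 RPKM under the KO label, from 33 to 64 reads a library. Cd68, Lyz2 and Tyrobp were the most strongly read, and Cd68, at a mean of 17.3 RPKM, lay between Pecam1 and Erg. Ptprc, the gene for the leukocyte surface protein CD45, had 5 reads in WT library 1, 6 in KO library 1 and 0 in the others, and Itgam had 0 reads in all 4. At an unadjusted p under 0.05 by limma, Adgre1 was higher and Lyz2 lower under the KO label, beside 2.86% and 4.46% of all tested genes, with an adjusted p of 0.672 and 0.660.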
